A study of Mus musculus with 8 samples.

Results

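Lysosomes take up and break down worn-out cell parts and endocytosed material, and 35 genes of this organelle were followed in cultured mouse heart muscle cells treated with simvastatin. The genes were taken from a list of lysosomal acid hydrolases, lysosomal membrane proteins, subunits of the vacuolar proton pump (V-ATPase) and the TFE transcription factors, matched by symbol, and they are 35 of the 49315 genes in each table. RNA sequencing libraries came from C57/Bl6 cardiomyocytes isolated at embryonic day 12.5 from male and female embryos pooled together. Of these, 4 libraries (labelled SMV) were from cells cultured in medium with 10 µM simvastatin and 4 (labelled Ctrl) from cells in control medium, with no other treatment, transgene or mutation named in the labels. Simvastatin inhibits HMG-CoA reductase and so the mevalonate pathway, and the comparison asks how that block changes gene expression in these cells. The labels do not say whether replicates are separate cultures, and the p-values cover the spread among these 8 libraries alone, which may be technical. The headers of the count columns assign replicates 1 and 3 of each group to set 1 and replicates 2 and 4 to set 2, without saying what a set is.

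Lysosomal hydrolases work at acid pH, which the V-ATPase maintains by pumping protons across the membrane: its cytosolic V1 sector hydrolyses ATP and its membrane V0 sector carries the protons. Many lysosomal genes share a short palindromic E-box in their promoters, which TFEB and its relatives TFE3 and MITF bind when they enter the nucleus. The kinase mTORC1, active on the lysosomal surface when nutrients are plentiful, phosphorylates these factors and keeps them in the cytosol, so their activity is set by where the proteins are as well as by their mRNA, and only mRNA was measured here.

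The E-box letters were looked for in RefSeq promoters (GRCm38.p6, 250 bases before to 50 bases after each annotated start), which were at hand for 30 of the 35 genes. CACGTG, which reads the same on both strands, was present for 13 of them (43.3%), against 11.5% of the 11239 tested genes that had a promoter in the table and 21.5% of 93 other genes of lysosome and autophagy function. The longer form TCACGTGA, which contains the shorter one, was present for 6 (20%), against 2.07% of tested genes. The promoters of the 3 E-box genes with the smallest p-values for treatment are shown with each CACGTG in capitals.
Glb1: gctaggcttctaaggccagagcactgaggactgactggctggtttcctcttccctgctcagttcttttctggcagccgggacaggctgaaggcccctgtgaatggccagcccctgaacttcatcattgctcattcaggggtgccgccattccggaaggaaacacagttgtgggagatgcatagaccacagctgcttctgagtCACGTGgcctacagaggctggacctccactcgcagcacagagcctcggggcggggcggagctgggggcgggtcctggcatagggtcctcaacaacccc
Ctsa: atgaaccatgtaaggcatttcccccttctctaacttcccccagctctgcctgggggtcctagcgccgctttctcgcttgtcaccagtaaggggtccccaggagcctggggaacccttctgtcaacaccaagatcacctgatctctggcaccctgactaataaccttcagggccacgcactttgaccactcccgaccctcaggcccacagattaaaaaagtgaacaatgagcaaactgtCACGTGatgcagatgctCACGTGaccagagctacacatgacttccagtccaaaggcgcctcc
Ctsd: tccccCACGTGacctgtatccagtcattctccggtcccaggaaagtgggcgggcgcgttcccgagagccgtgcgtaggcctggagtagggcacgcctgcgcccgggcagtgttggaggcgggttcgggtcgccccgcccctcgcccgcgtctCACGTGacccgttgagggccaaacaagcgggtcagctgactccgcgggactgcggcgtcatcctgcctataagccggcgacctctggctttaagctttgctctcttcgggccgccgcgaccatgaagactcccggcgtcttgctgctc
The Glb1 promoter lies at chr9:114400828-114401127 on the plus strand, with its E-box starting 48 bases before the start site. The Ctsa promoter, the one of its 2 in the table that holds the element, lies at chr2:164833523-164833822 on the plus strand. Its E-boxes start 12 bases before the start site and at base 6 of the transcript. The Ctsd promoter lies at chr7:142387778-142388077 on the minus strand, with E-boxes 245 and 98 bases before the start site. The treatment effects of genes with and without the element covered much the same range: the median log2 fold change was 0.11 over the 13 genes with CACGTG (range −0.25 to 0.32, 10 above 0) and 0.07 over the 17 without it (range −0.26 to 0.43, 12 above 0). The 5 genes with no promoter at hand are in neither group, and their median was 0.18 (range −0.23 to 0.27, 3 above 0). The E-box counts and positions are descriptions of letters in a window and say nothing of binding.

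Libraries held 30474586 to 34993255 counts with simvastatin and 31457872 to 35215640 in controls, and the 35 genes together took 0.818% to 0.889% of counts with simvastatin and 0.761% to 0.844% in controls. Levels are given as CPM (the count as a share of the library's TMM-scaled total), and levels of different genes are compared as TPM, which divides by the exon length in the files. All 35 genes passed the filter on low counts. Exons of 11 of them overlap another gene. The overlap is at least 10% of their length for Ctsa, Ctsb, Ctsd, Hexa and Sgsh, and 5.49% for Glb1 (with Tmppe). For Ctsd and Glb1 the other gene is on the same strand, and reads from the shared stretch cannot be assigned to 1 gene. For the rest it is on the opposite strand. With the strand setting of the counting not given, whether those reads were kept apart is not known. Differences between groups are log2 fold changes, simvastatin over control, from the quasi-likelihood F test of edgeR, called at a Benjamini-Hochberg adjusted p under 0.05 over all 16126 genes tested.

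The lysosomal genes as a group showed small differences between simvastatin and control cells, and 1 passed the test. Of the 35, 1 gene rose (Glb1) and 0 fell, or 2.86%, against 17.4% of all genes tested that were called (7.79% rose and 9.61% fell). Of the 35, 9 had an unadjusted p under 0.05, against 29.5% of all genes. DESeq2 called 1 gene falling (Hexa), and limma-voom called none falling. The log2 fold changes ran from −0.26 to 0.43 with a median of 0.11 (0.12 within set 1 and 0.06 within set 2), beside a median of 0.01 over all genes, and 25 were above 0 and 10 below. The 95% interval of the fold change lay within 1.5-fold either way for 28 of the 35 genes and within 2-fold for 32. The 7 genes whose interval was wider than 1.5-fold were Tfeb, Mitf, Lamp1, Mcoln1, Naglu, Psap and Asah1, so for these a change of that size was not excluded by the interval. All 4 simvastatin libraries lay above all 4 controls for Glb1, Scpep1, Atp6v1b2 and Atp6v1h, against 11.0% of all genes, and below them for Ctsa, Ctsb and Hexa, against 12.1% of all genes. For the other 28 genes the groups overlapped. Within set 1 alone 0 of the 35 were called, against 9.82% of genes, and within set 2 alone 3 were (Lamp2 rising, Naglu and Mcoln1 falling), against 18.3%. With the second principal component of the libraries as a term, 3 were called (Glb1 and Tfeb rising, Hexa falling), against 21.5%. That component was computed from the same libraries and was added as a term after seeing the data. Tfeb followed it closely within groups (correlation −0.92), so the Tfeb call (adjusted p = 0.0218) is not independent of the term. Without the term Tfeb had an adjusted p of 0.321, and within set 2 alone its log2 fold change was −0.22.

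**Figure D1:**
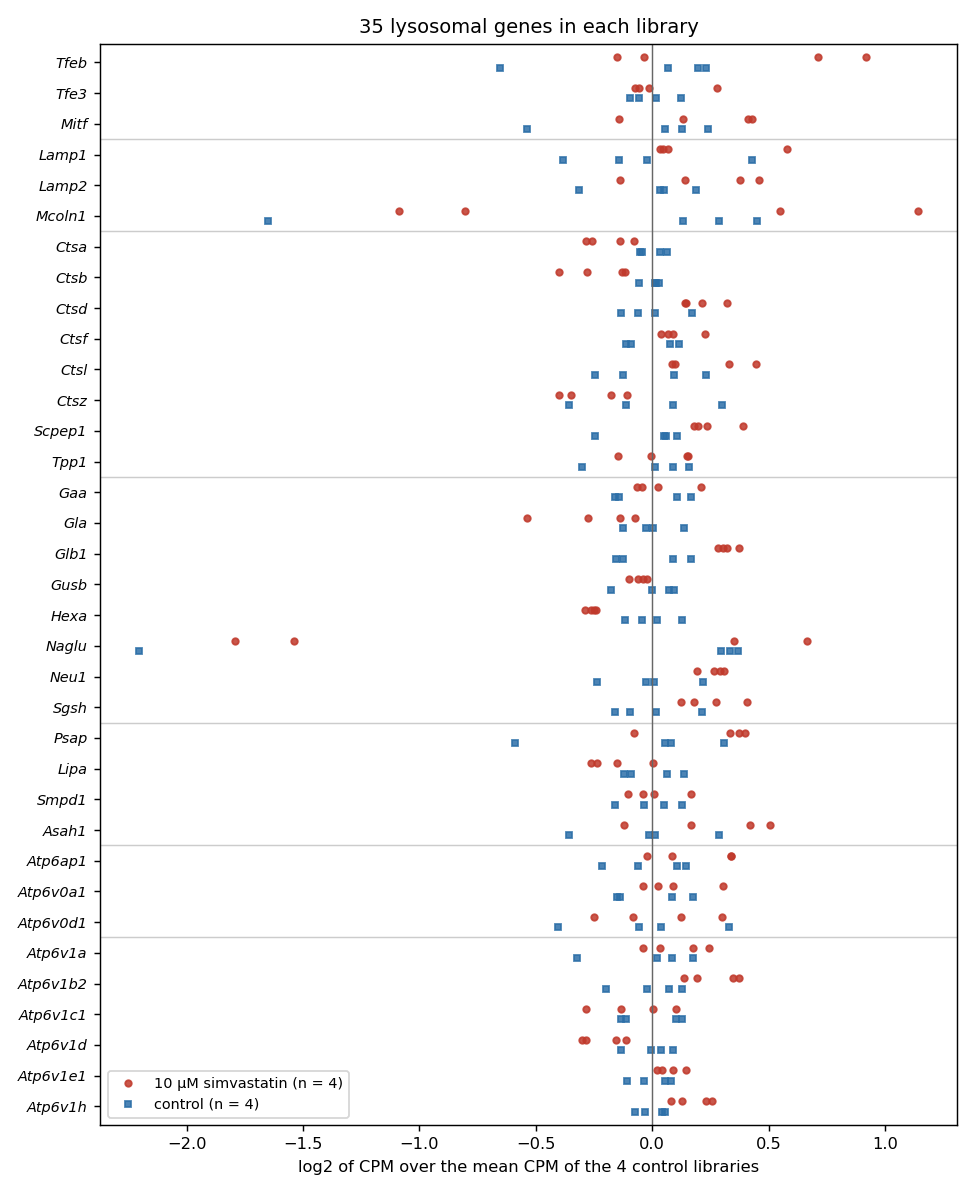
CPM of each of the 35 genes in each library, as log2 of the value over the mean of the 4 control libraries, with simvastatin as circles drawn above control squares and grey lines between functional groups. Most points sit close to 0, while Naglu, Mcoln1 and Tfeb spread widely within both groups.

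**Figure D2:**
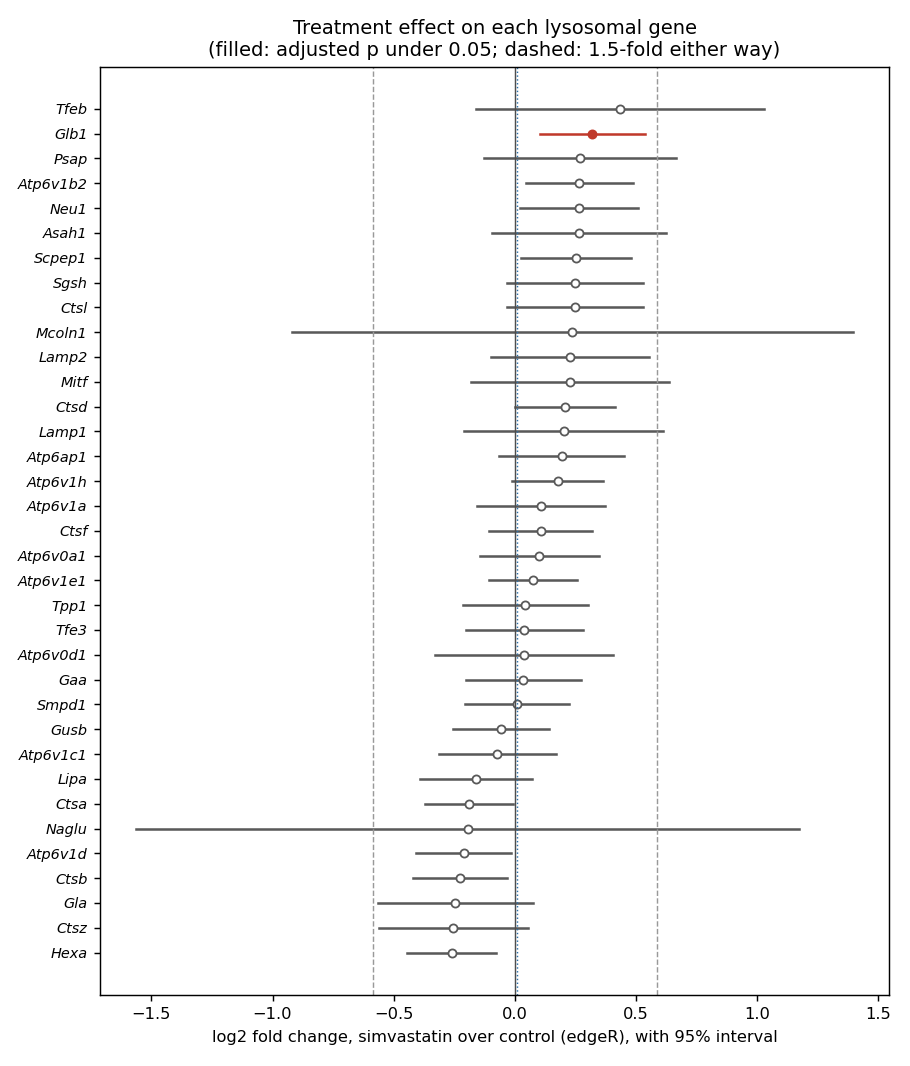
Log2 fold change of each gene, simvastatin over control, with its 95% interval from edgeR, ordered by size (dotted line, median of all genes). Glb1 (filled) is the 1 gene with an adjusted p under 0.05, and the intervals of 28 genes stay within the dashed lines at 1.5-fold.

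The levels spanned a wide range. Per length, Ctsd was the highest, at 1733 ± 121 TPM with simvastatin and 1455 ± 134 TPM in controls (SD, n = 4 each). It was followed by Ctsb at 638 ± 60.3 and 723 ± 26.4 TPM, Psap at 591 ± 88.1 and 477 ± 121 TPM, and Ctsl at 470 ± 56.7 and 384 ± 61.3 TPM in simvastatin and control cells. Psap and Ctsl were neighbours in this order, and their ranges of mean ± SD overlapped in both groups. At the other end, Gla had 7.86 ± 1.14 TPM with simvastatin and 9.02 ± 0.588 TPM in controls, and Mcoln1, Sgsh, Tfeb, Mitf, Tfe3 and Naglu all averaged under 20 TPM in both groups. Libraries of 1 group mostly stayed close: the highest was under 1.5 times the lowest for 30 genes with simvastatin and for 26 in controls.

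Among the transcription factors, none passed the test. Tfeb, the factor best known for turning on lysosomal genes, had 36.2, 19.9, 41.8 and 21.6 CPM in simvastatin replicates 1 to 4, against 14.0, 23.1, 25.9 and 25.3 CPM in controls. The set 1 simvastatin libraries were the highest and control replicate 1 the lowest, and the groups overlapped. Its log2 fold change was 0.43 ± 0.27 (SE), with an adjusted p of 0.321. Tfe3, an X-linked relative with overlapping targets, averaged 56.3 ± 6.79 CPM with simvastatin and 54.8 ± 3.69 CPM in controls (SD, n = 4 each), a log2 difference of 0.04 (adjusted p = 0.862). Mitf, the family member known from pigment cells and osteoclasts, averaged 35.9 ± 6.45 and 30.7 ± 6.61 CPM in simvastatin and control cells, a log2 difference of 0.23 (adjusted p = 0.472).

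Of the membrane proteins, Lamp1 and Lamp2 are the main glycoproteins lining the lysosomal membrane, and LAMP2 loss causes Danon disease, a cardiomyopathy in humans. Lamp2 had 355, 508, 431 and 537 CPM in simvastatin replicates 1 to 4 and 399.6, 445, 314 and 404 CPM in controls. The set 2 libraries were the higher ones with simvastatin, and the groups overlapped. Its log2 fold change was 0.23 ± 0.15 (SE, adjusted p = 0.343), and it was called within set 2 alone (0.30, adjusted p = 0.0469) and not within set 1 alone (0.12, adjusted p = 0.718). Lamp1 averaged 68.7 ± 13.8 CPM with simvastatin and 59.7 ± 14.7 CPM in controls (adjusted p = 0.533). Mcoln1, the lysosomal calcium channel upstream of calcineurin and TFEB, had values that split within both groups and is described with Naglu.

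The cathepsins and serine peptidases, which cut proteins inside the lysosome, had fold changes of both signs, and none passed the test. Ctsd, an aspartic protease, had 1455.5, 1647, 1450.1 and 1527 CPM in simvastatin replicates 1 to 4, against 1198, 1481, 1261 and 1327 CPM in controls. Control replicate 2 reached the simvastatin range, and the other controls lay below it. The log2 fold change was 0.21 ± 0.09 (SE, adjusted p = 0.166). Ctsb, a cysteine protease, had 1088, 1217, 1001 and 1204 CPM with simvastatin, against 1267, 1334, 1329 and 1346 CPM in controls, with no overlap. Its log2 fold change was −0.23 ± 0.09 (SE, adjusted p = 0.11), and with set as a term Ctsb was called as falling (adjusted p = 0.0427). Ctsb shares 767 exon bases (16.2% of its length) with Fdft1 on the other strand, so with the strand setting of the counting not given, reads from the shared stretch cannot be told apart.

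Ctsa, the carboxypeptidase that also protects beta-galactosidase and neuraminidase in a complex, had 531, 577, 522 and 601 CPM with simvastatin, against 613, 663, 649 and 616 CPM in controls. The groups did not overlap, and the log2 fold change was −0.19 ± 0.08 (SE, adjusted p = 0.156). Its exons overlap those of Pltp and Neurl2, by 10.5% of its length for Pltp. Scpep1, a serine carboxypeptidase, averaged 142 ± 9.79 CPM with simvastatin and 119 ± 12.6 CPM in controls (SD, n = 4 each), a log2 fold change of 0.25 ± 0.10 (SE, adjusted p = 0.124) with no overlap. Ctsl, which has a mouse knockout known for dilated cardiomyopathy, averaged 346 ± 43.1 CPM with simvastatin and 291 ± 43.1 CPM in controls (adjusted p = 0.228). Ctsz, an exopeptidase, averaged 144 ± 13.9 and 171 ± 32.9 CPM in simvastatin and control cells (adjusted p = 0.261). Ctsf and the tripeptidyl peptidase Tpp1 differed by 0.11 and 0.04 on the log2 scale.

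Glb1, the beta-galactosidase that removes galactose from gangliosides and keratan sulfate, was the gene that rose. It lies at chr9:114401076-114474898 (GRCm38, plus strand) and had 118, 122, 116 and 115 CPM in simvastatin replicates 1 to 4, against 86.5, 106, 84.7 and 100.4 CPM in controls. The 4 simvastatin libraries lay close together and above every control. The means were 118 ± 3.13 CPM with simvastatin and 94.4 ± 10.5 CPM in controls (SD, n = 4 each), and the log2 fold change was 0.32 ± 0.10 (SE), a 1.25-fold difference with a 95% interval of 1.07 to 1.45 and an adjusted p of 0.0466. The call rested on the full set of libraries: the adjusted p was 0.105 within set 1 alone (log2 fold change 0.44) and 0.171 within set 2 alone (0.20), and of the 8 fits that left out 1 library only the fit without control replicate 2 kept the call (0.0366). It was 0.0846, 0.119, 0.112 and 0.0859 without simvastatin replicates 1 to 4, 0.118, 0.0913 and 0.0651 without control replicates 1, 3 and 4, and 0.128 without a filter on low counts.

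Hexa, the alpha subunit of beta-hexosaminidase, whose loss causes Tay-Sachs disease in humans, had the smallest p among the genes that were lower with simvastatin. It had 164, 161, 166 and 166 CPM with simvastatin, against 199.6, 215, 191 and 181 CPM in controls, and every simvastatin library lay below every control. Its log2 fold change was −0.26 ± 0.08 (SE, adjusted p = 0.0537), and it was called in 5 of 19 alternative fits, among them DESeq2 (adjusted p = 0.0229) and the fit with set as a term (adjusted p = 0.0389). Glb1 and Hexa act at successive steps of ganglioside breakdown, and their fold changes had opposite signs.

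The other enzymes of glycan and glycosaminoglycan breakdown did not pass the test. Neu1, the neuraminidase of the complex with Glb1 and Ctsa, had 50.3, 54.5, 53.9 and 53.0 CPM with simvastatin, against 43.3, 51.2, 37.4 and 44.2 CPM in controls (log2 fold change 0.27 ± 0.11 SE, adjusted p = 0.135). Only control replicate 2 reached into the simvastatin range. Of this complex, therefore, Glb1 rose, and neither Neu1 nor Ctsa passed the test, with fold changes of opposite sign. Sgsh, which removes sulfate from heparan sulfate, averaged 20.9 ± 1.82 CPM with simvastatin and 17.6 ± 2.04 CPM in controls (adjusted p = 0.223). Gla, the alpha-galactosidase lost in Fabry disease, averaged 9.58 ± 1.31 CPM with simvastatin and 11.4 ± 0.869 CPM in controls (adjusted p = 0.299). Gaa, the alpha-glucosidase that breaks down lysosomal glycogen and is lost in Pompe disease, averaged 357 ± 32.2 CPM with simvastatin and 349 ± 40.2 CPM in controls, a log2 difference of 0.04 with a 95% interval from −0.20 to 0.27. Gusb, the beta-glucuronidase, differed by −0.06 (interval −0.25 to 0.14).

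Naglu, the N-acetylglucosaminidase of heparan sulfate breakdown, varied more between libraries of 1 group than any other of the 35 genes. It had 22.1, 5.96, 27.4 and 5.0 CPM in simvastatin replicates 1 to 4, against 3.76, 21.8, 21.3 and 22.4 CPM in controls. Simvastatin replicates 2 and 4 and control replicate 1 were low, and the other 5 libraries were high. Mcoln1 split the same way, with 35.3, 11.4, 53.4 and 13.8 CPM with simvastatin, against 7.69, 29.5, 26.4 and 33.0 CPM in controls, and Tfeb followed it with a smaller range. For Naglu the log2 fold change was −0.19 ± 0.62 (SE) over all libraries (adjusted p = 0.882), 0.95 within set 1 (adjusted p = 0.462) and −2.01 within set 2 (adjusted p = 0.000138). Mcoln1 gave 0.24 ± 0.52 (SE) over all libraries (adjusted p = 0.824), 1.35 within set 1 (adjusted p = 0.19) and −1.31 within set 2 (adjusted p = 0.000547).

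The difference of the treatment effect between the sets was tested as a treatment by set interaction in edgeR, which called 9 genes in all (0.0558%) and 0 of the 35. The lowest adjusted p-values were 0.116 for Mcoln1, 0.162 for Naglu and 0.197 for Tfeb. With no filter on low counts the same term called 981 genes, these 3 among them. The 3 low libraries were also the high ones on the second principal component of the log CPM values, with scores of 25.2 and 33.8 in simvastatin replicates 2 and 4 and 30.4 in control replicate 1. Of the 112 tested genes in the other pathway lists, 5 had a correlation with that component below −0.85 after removing the group means. They were Npc1 (−0.90), Uvrag, Hgsnat, Tmem192 and Wipi2 (−0.88 each). Among the 35 genes the correlation with that component, itself computed from the same 8 libraries, was −0.92 for Tfeb, −0.90 for Naglu and −0.85 for Mcoln1, as a description, with 4.14% of all tested genes below −0.85. The longest transcripts of these 4.14% had a median GC content of 55.4%, against 49.6% for all genes tested. The 3 genes themselves had 63.2% (Tfeb), 59.8% (Naglu) and 50.4% (Mcoln1). What sets these libraries apart was not tested.

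**Figure D3:**
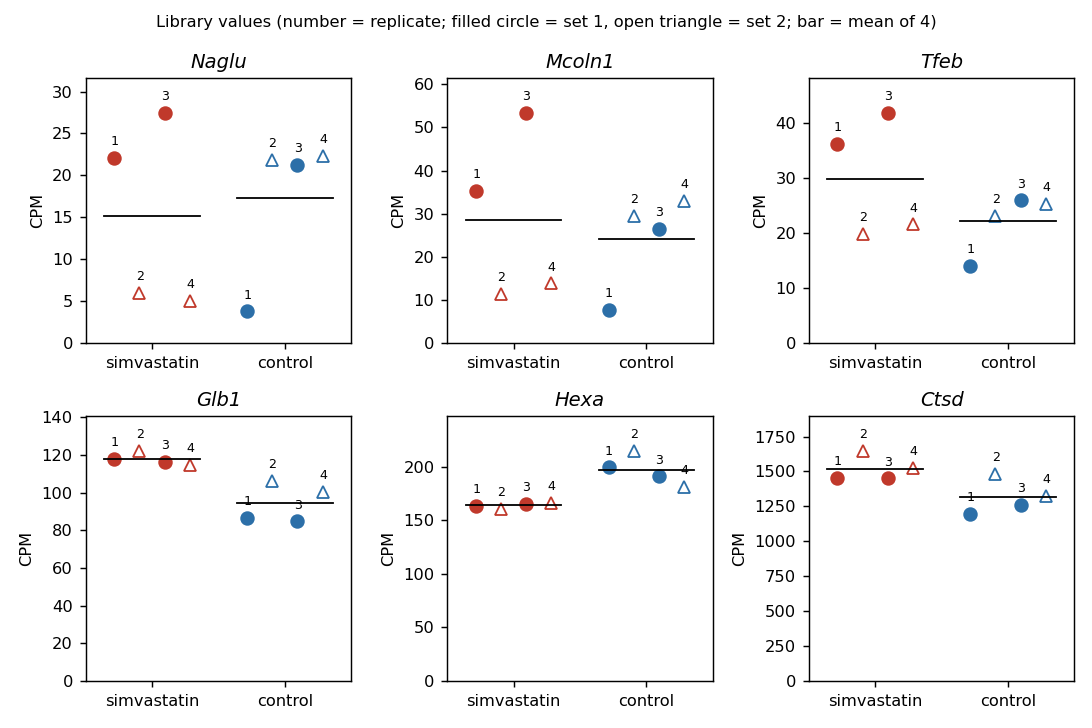
CPM in each library for 6 genes, simvastatin left of control, with the replicate number beside each point, filled circles for set 1, open triangles for set 2 and a bar at the mean of 4. Naglu, Mcoln1 and Tfeb are low in simvastatin replicates 2 and 4 and control replicate 1, while the simvastatin libraries lie above the controls for Glb1 and below them for Hexa.

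The lipid-degrading enzymes did not pass the test. Psap, the precursor of the saposins that present lipids to their hydrolases, had 475, 633, 649.9 and 661 CPM with simvastatin, against 531, 621, 333 and 522 CPM in controls. Simvastatin replicate 1 and control replicate 3 were low, and the log2 fold change was 0.27 ± 0.18 (SE, adjusted p = 0.358). Asah1, the acid ceramidase, averaged 245 ± 46.1 CPM with simvastatin and 204 ± 36.8 CPM in controls (adjusted p = 0.320). Lipa, the acid lipase that releases cholesterol from lipoprotein cholesteryl esters and so supplies the cell with sterol from outside, averaged 48.3 ± 4.15 CPM with simvastatin and 54.0 ± 4.59 CPM in controls. Its log2 difference was −0.16 with a 95% interval from −0.39 to 0.07 (adjusted p = 0.355). Smpd1, the acid sphingomyelinase, differed by 0.01 (interval −0.20 to 0.23).

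None of the 9 listed proton pump genes passed the test either. Atp6v1b2, the B2 subunit that binds ATP in the V1 sector with Atp6v1a, came closest. It had 272, 314, 282 and 320.05 CPM with simvastatin, against 215, 259.7, 243 and 270.1 CPM in controls. Every simvastatin library lay above every control, and the log2 fold change was 0.27 ± 0.10 (SE, adjusted p = 0.0965). Atp6v1b2 was called as rising with set as a term (adjusted p = 0.024) and with library totals in place of TMM (adjusted p = 0.0429). Atp6v1h, the regulatory H subunit, also showed no overlap, with means of 110.3 ± 6.26 CPM with simvastatin and 97.6 ± 4.07 CPM in controls (log2 fold change 0.18 ± 0.08 SE, adjusted p = 0.195). Atp6v1d, on the central rotor, averaged 169 ± 11.1 CPM with simvastatin and 195 ± 12.9 CPM in controls (log2 fold change −0.21 ± 0.09 SE, adjusted p = 0.139). The catalytic A subunit Atp6v1a and the stalk subunits Atp6v1c1 and Atp6v1e1 differed by 0.11, −0.07 and 0.07 on the log2 scale. In the V0 sector, the a1 subunit Atp6v0a1 differed by 0.10, the d1 subunit Atp6v0d1 by 0.04 and the accessory protein Atp6ap1 by 0.19 (adjusted p = 0.612, 0.919 and 0.310).

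The pump is built from isoforms of several subunits, and 17 further subunits and accessory proteins were compared. Of these, 13 had enough counts to be tested, 1 rose and 1 fell (15.4%, against 17.4% of all genes tested). Atp6v0e2, an isoform of the small V0 subunit e, rose, with 66.0, 53.8, 49.9 and 56.8 CPM with simvastatin, against 32, 43.3, 30.1 and 35.8 CPM in controls (log2 fold change 0.68 ± 0.14 SE, adjusted p = 0.00672). Every simvastatin library lay above every control. As a share of the TPM of both e isoforms, Atp6v0e2 made up 27.3 ± 1.70% with simvastatin and 20.9 ± 4.39% in controls (SD, n = 4 each). The a3 isoform Tcirg1, known from osteoclasts, fell to 12.7, 12.4, 12.7 and 11.8 CPM with simvastatin, against 20.2, 16.7, 15.4 and 14.8 CPM in controls. Its log2 fold change was −0.44 ± 0.13 (SE, adjusted p = 0.0465), and the call was lost with library totals in place of TMM (adjusted p = 0.073), with limma-voom (0.0507), with no filter (0.123) and within either set alone (0.209 and 0.113). Of the fits that left out 1 library, only the fit without control replicate 4 kept the call for Tcirg1 (0.0427), and the others gave adjusted p-values up to 0.121.

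Among the a subunits, Atp6v0a1 supplied 66.1 ± 1.76% of the TPM with simvastatin and 59.3 ± 2.82% in controls, with simvastatin libraries at 64.1% to 68.3% and controls at 56.8% to 63.3%. Atp6v0a2 supplied 27.3 ± 1.5% and 31.9 ± 5.05%, and Tcirg1 6.64 ± 0.504% and 8.79 ± 2.42%, in simvastatin and control cells. Subunits d, B, C, E and G came almost wholly from Atp6v0d1, Atp6v1b2, Atp6v1c1, Atp6v1e1 and Atp6v1g1, which supplied at least 96.2% of their isoforms' TPM in every library. The isoforms known from kidney and other specialised epithelia were at or near 0. Atp6v1b1 and Atp6v1g3 had 0 counts in the 4 simvastatin libraries, which allows up to 3 counts per library, or 0.0863 to 0.0987 CPM, and 4 and 2 counts in all in the controls. Atp6v0a4 had 6 counts in all with simvastatin and 10 in controls, and Atp6v1e2, known from testis, had 0 and 5.

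The remaining pump genes did not pass the test. The proton-carrying ring subunits Atp6v0b and Atp6v0c differed by −0.01 and −0.21 on the log2 scale, and for Atp6v0c every simvastatin library lay below every control (96.7 to 109 CPM, against 117 to 131 CPM, adjusted p = 0.133). Atp6v1f and the G isoform Atp6v1g1, small subunits of V1, differed by 0.19 and 0.04, the G isoform Atp6v1g2 by 0.15, Atp6v0e by 0.15, and the accessory proteins Atp6ap2 and Rnasek by 0.02 and 0.10. The low isoforms Atp6v0d2 and Atp6v1c2, both under 2 CPM in every library, differed by −0.55 and 0.67 (adjusted p = 0.36 and 0.276), and Atp6v0a2 by −0.31 (adjusted p = 0.294).

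**Figure D4:**
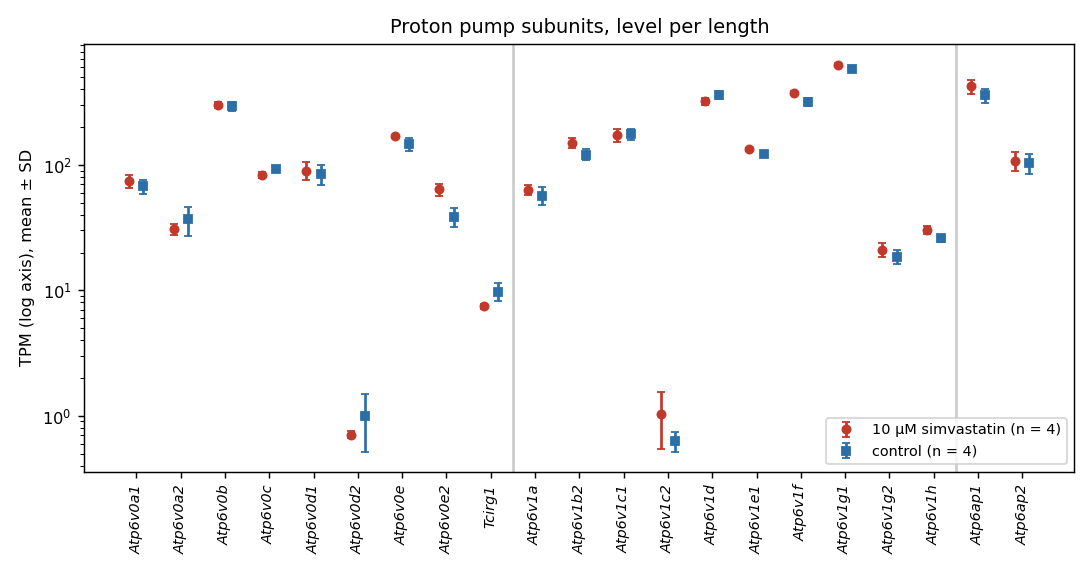
Level per length (TPM, log axis) of the V0 subunits, V1 subunits and accessory proteins of the proton pump. Points are the mean ± SD of 4 simvastatin libraries (circles) and, to their right, of 4 control libraries (squares). Subunits under 0.5 TPM and the accessory protein Rnasek are left out. Atp6v0e2 stands higher with simvastatin and Tcirg1 lower, and for most other subunits the means lie close together.

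Other lysosomal enzymes, listed to set the 35 genes in their pathway, included 3 that rose of 31 tested and 0 that fell. The share called was 9.68%, against 17.4% of all genes tested, and the median log2 fold change was 0.06. Of the 31, 6 had an unadjusted p under 0.05, against 29.5% of all genes. Ctso, a cysteine cathepsin, rose to 31.3, 33.8, 31.5 and 36.8 CPM with simvastatin, against 19.7, 23.0, 18.3 and 22.3 CPM in controls (log2 fold change 0.68 ± 0.12 SE, adjusted p = 0.00261). Arsa, the arylsulfatase that desulfates sulfatide, rose to 45.2, 39.9, 45.1 and 37.3 CPM, against 28.2, 29.5, 26.7 and 25.9 CPM in controls (0.60 ± 0.11 SE, adjusted p = 0.00314). Ctsc, the dipeptidyl peptidase that activates granule proteases in immune cells, rose to 72.0 to 85.2 CPM, against 57.3 to 64.5 CPM in controls (0.38 ± 0.09 SE, adjusted p = 0.0149). For all 3 the groups did not overlap. The call was lost within set 1 alone for Ctso (0.0512) and Ctsc (0.220), and for Ctsc also with no filter (0.0569) and without simvastatin replicate 3 (0.0516) or 4 (0.0529).

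Among 21 other lysosomal membrane and lumenal transport proteins, 3 rose and 1 fell, with a median of 0.15. The share called, 19%, was near the 17.4% of all genes tested. Npc2, which hands cholesterol to NPC1 for export from the lysosome, rose to 186, 178, 184 and 186 CPM with simvastatin, against 133, 156, 139 and 121 CPM in controls (0.42 ± 0.09 SE, adjusted p = 0.0108). Tpcn1, an endolysosomal cation channel, rose to 7.49 to 8.98 CPM, against 4.14 to 5.72 CPM in controls (0.73 ± 0.16 SE, adjusted p = 0.0105). Slc38a9, the arginine sensor of the lysosomal membrane that signals to mTORC1, rose to 11.3 to 17 CPM, against 7.38 to 10.3 CPM in controls (0.59 ± 0.17 SE, adjusted p = 0.0401). The tetraspanin Cd63 fell to 480 to 517 CPM, against 573 to 846 CPM in controls (−0.47 ± 0.12 SE, adjusted p = 0.0229), with −0.69 within set 1 and −0.24 within set 2 (adjusted p = 0.0802). The Cd63 call was lost on leaving out any of simvastatin replicates 2, 3 and 4 or control replicate 1 (0.056 to 0.069), and the Slc38a9 call without simvastatin replicate 2 or 4 or any 1 of the 4 controls (0.0572 to 0.111). Within set 1 alone, Npc2 (0.102), Tpcn1 (0.168) and Slc38a9 (0.243) did not pass, and within set 2 alone Npc2 did not (0.0575).

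In the autophagy list of 20 genes, 2 rose and 0 fell (10%, against 17.4% of all genes tested), with a median of 0.24. In this list 10 had an unadjusted p under 0.05, against 29.5% of all genes. Sqstm1, the p62 cargo receptor and a known TFEB target, rose to 923, 786, 909 and 884 CPM with simvastatin, against 572, 619.6, 582 and 561 CPM in controls (0.58 ± 0.08 SE, adjusted p = 0.000969). Wipi1, which binds phosphoinositides on forming autophagosomes, rose to 85.1 to 92.2 CPM, against 62.4 to 72.7 CPM in controls (0.40 ± 0.09 SE, adjusted p = 0.0101), and did not pass within either set alone (0.110 and 0.0529). Of the 17 genes of mTORC1 and TFE factor control, 0 rose and 1 fell (5.88%, against 17.4% of all genes), with a median of 0.14. The 1 was Tfec, the fourth and least abundant TFE family member, with 9, 7, 26 and 12 counts with simvastatin and 60, 52, 26 and 46 counts in controls (−1.67 ± 0.45 SE, adjusted p = 0.027). Its groups overlapped. Tfec was not tested under a filter of 1 CPM, and the call was lost within set 1 alone (0.364) and on leaving out replicate 1, 2 or 4 of either group (0.0563 to 0.0736). Among the 10 genes of mannose 6-phosphate tagging and sorting, which brings new hydrolases to the lysosome, edgeR called 0, against 17.4% of all genes. In this list 1 gene had an unadjusted p under 0.05, against 29.5% of all genes. That gene was M6pr, the cation-dependent receptor, at 103 to 130.4 CPM with simvastatin and 143 to 158 CPM in controls (log2 fold change −0.30, adjusted p = 0.0539), and DESeq2 and limma-voom each called 1 gene falling in this list.

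**Figure D5:**
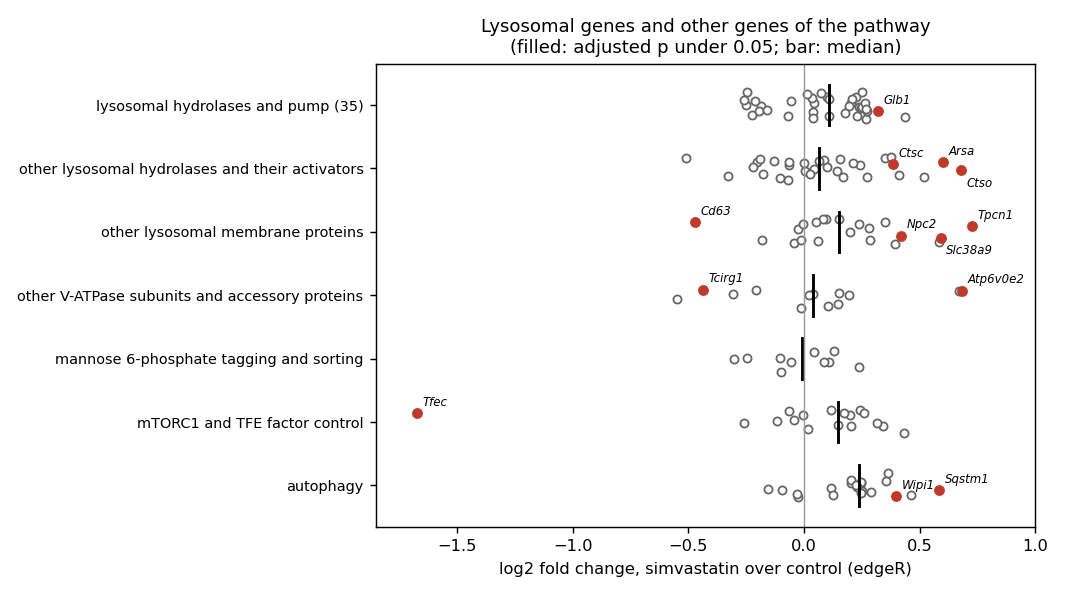
Log2 fold change, simvastatin over control, of the 35 genes (top row) and of 6 lists of other genes of the pathway, with a bar at each median and called genes filled and named. The medians lie between −0.01 and 0.24, and the called genes number 1 of 35 in the top row and from 0 to 4 in each other list. Of all genes tested, 17.4% were called.

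Cell type markers were read beside these values, since lysosomal genes are high in macrophages. In whole-culture RNA, fewer cells of a type and less RNA per cell cannot be told apart. Of all genes tested by edgeR, 7.79% rose, 9.61% fell and 29.5% had an unadjusted p under 0.05. The 8 cardiomyocyte markers, read as a check of the label, summed to 42045 to 48564 CPM with simvastatin and 38359 to 48776 CPM in controls, and 0 of them were called by edgeR (0 at an unadjusted p under 0.05). Tnnt2 and Myh6 were the largest parts of each sum. Nkx2-5, the lowest, had 20.5, 3.97, 29.7 and 4.54 CPM with simvastatin, against 3.56, 11.7, 12.2 and 16.6 CPM in controls. It was low in the same libraries as Naglu. Its log2 fold change was 1.64 within set 1 (adjusted p = 0.123) and −1.73 within set 2 (adjusted p = 0.000918). The 12 macrophage markers summed to 329 to 425 CPM with simvastatin and 379 to 475 CPM in controls (exact permutation p = 0.0857, 0.2 adjusted over 7 lists). Most of each sum was Lyz2, at 255 to 338 CPM with simvastatin and 275 to 364 CPM in controls. Lyz2 was not called by edgeR (log2 fold change −0.13, adjusted p = 0.514). None of the 12 was at 0 in every library, and 5 of the 11 tested fell (Adgre1, C1qb, C1qc, Fcer1g and Cd68). Of the 11, 10 had a fold change below 0 and 1 above, with a median of −0.49. Fibroblast markers summed to 1236 to 1440.1 CPM with simvastatin and 1145 to 2541 CPM in controls (exact permutation p = 0.429, 0.5 adjusted). Within set 1 the sums were 1260.2 and 1236 CPM with simvastatin and 2310.3 and 2541 CPM in controls. Of the 8 fibroblast markers, 6 had a fold change below 0 and 2 above, and by edgeR 3 fell (Col3a1, Pdgfra and Tcf21). Their log2 fold changes were −1.61, −2.21 and −2.63 within set 1 alone, and −0.07, −0.20 and −0.17 within set 2 alone. Within set 2 none of these 3 was called (adjusted p = 0.661, 0.376 and 0.580). Dcn, Lum and Col1a2 rose within set 2 alone (log2 fold changes 0.91, 0.71 and 0.50, adjusted p = 0.00153, 0.0103 and 0.0112). Col1a2 fell within set 1 alone (−0.90, adjusted p = 0.00844). Over all libraries Dcn had a log2 fold change of 0.53 (adjusted p = 0.106), with every simvastatin library above every control. The treatment by set interaction was called for Col3a1, Tcf21 and Col1a2 (adjusted p = 0.0277, 0.0351 and 0.0351) and not for Pdgfra (0.0613). Endothelial markers summed to 202 to 257 CPM with simvastatin and 206 to 291 CPM in controls (exact permutation p = 0.4, 0.5 adjusted), where Emcn and Npr3 fell and Tek rose. Epicardial markers summed to 205 to 280.4 CPM with simvastatin and 166 to 268 CPM in controls (exact permutation p = 0.371, 0.5 adjusted), where Wt1 and Aldh1a2 fell and Msln rose. The part of these 4 lists in the falls of Tcirg1, Cd63 and Tfec was not tested. Smooth muscle markers summed to 429 to 644 CPM with simvastatin and 2500.3 to 3609 CPM in controls, and erythroid markers to 17.2 to 40.6 CPM and 8.49 to 13.8 CPM. For both the exact permutation p was 0.0286, the smallest that 4 against 4 libraries can give (0.1 adjusted). By edgeR all 4 smooth muscle markers fell (Acta2, Tagln, Myh11 and Cnn1), with log2 fold changes from −3.30 to −0.84. Of the 6 erythroid markers tested, 3 rose (Hbb-bt, Hbb-y and Hba-a2). The part of the smooth muscle and erythroid lists in any result was not tested.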

How the data were processed

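The authors deposited raw counts per gene, 1 table per library. The submitters' processing notes name the builds GRCm38 and mm10 and the tools STAR 2.5.2b, Trimmomatic 0.36, Subread 1.5.2 and featureCounts. The sources used here give no strand setting, annotation release or time in simvastatin. Symbols came from the GENCODE annotation of that build, which matched 99.3% of identifiers. Genes were kept by filterByExpr, which left 16126 of the 32927 with any count. The main test was edgeR 4.0.16 (R 4.3.3), a two-sided quasi-likelihood F test for treatment with no other term, after TMM scaling. It was tested on simulated data. A first criterion, on recovery of large changes, failed through misses at low levels, and the criteria were then revised. Recovery of changes as small as those of the 35 genes is not given here. Intervals are at 95%. CPM used TMM factors, and TPM used the exon length in the files. No 2 libraries of a group were alike within counting noise. Alternatives were other scalings, DESeq2 1.42.0, limma 3.58.1 (voom), other filters, a replicate block, set as a term, each set alone and each library left out, and, added after seeing the data, the second principal component as a term. Marker sums were compared with exact permutation tests (scipy 1.17.1). Exons of 11 of the 35 genes overlap another gene. The 35 genes are all named; of the other lists, up to 4 called genes with the smallest p, and every pump subunit. M6pr, Npc1, Uvrag, Hgsnat, Tmem192, Wipi2 and some cell type markers were named after their values were seen. The genes and lists were chosen with earlier results of these data known.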

Additional observations from a re-analysis of the deposited data

Results flagged for a closer look

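In 116 groups of 4 libraries, 1 library stood apart from the other 3 in 7 (by Dixon's gap over range at 95%), and chance flags about 1 in 20 such groups. Simvastatin replicate 1 held 3 of the 7. It had 89.3 CPM of Lamp1, with 61.1 to 62.6 CPM in the other simvastatin libraries. For Psap it had 475 CPM, with 633 to 661 CPM in the others. For Tpcn1 it had 8.98 CPM, with 7.49 to 7.68 CPM in the others. Simvastatin replicate 2 had 66.4 CPM of Tfe3, with 52.0 to 54.2 CPM in the others, and simvastatin replicate 4 had 96.7 CPM of Atp6v0c, with 107 to 109 CPM in the others. Control replicate 1 had 3.76 CPM of Naglu, with 21.3 to 22.4 CPM in the other controls, and control replicate 4 had 100.5 CPM of Scpep1, with 123 to 128 CPM in the others.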

How the results depend on the processing

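Of the 35 genes, 27 kept the sign of their fold change under all 19 alternatives, and 8 were called under at least 1. The count of the 35 rising, 1 in edgeR, was 2 with library totals, with set as a term and with the second principal component as a term, and 0 with no filter, with the replicate block and in set 1 alone. The count falling, 0, was 1 with the 1 CPM filter, DESeq2 and the second component, and 2 with set as a term and in set 2 alone. Over all genes, 648 rose and 979 fell in set 1 alone, against 1256 and 1549. The labels do not say whether replicate numbers pair the libraries. Deviations of same-numbered libraries from their group means had correlations of −0.14, 0.05, 0.13 and −0.16, which do not decide how libraries were prepared. The replicate block gave 944 rising and 1187 falling, and 0 falling among other membrane proteins, other pump genes and mTORC1 control. Other hydrolases rising numbered 1 in set 1 alone, and falling 1 with set as a term, the second component and DESeq2 and 2 in set 2 alone. Other membrane proteins rising numbered 5 with library totals and 0 in set 1 alone, and falling 3 in set 2 alone. Other pump genes rising numbered 2 in set 2 alone, and falling 0 with library totals, no filter, limma-voom and set 1 alone. Sorting genes falling numbered 1 with the 1 CPM filter, set as a term, the second component, DESeq2 and limma-voom, and 2 in set 2 alone. Of mTORC1 control, 1 rose in set 1 alone, and 0 fell there and with the 1 CPM filter. Autophagy genes rising numbered 4 with library totals and set as a term, 5 with DESeq2 and 6 with the second component, and 3 fell in set 2 alone. The treatment by set interaction with no filter called 981 genes, 3 of the 35. Summed cell type markers changed sign in set 2 alone for cardiomyocyte (−0.021) and fibroblast (0.28) and in set 1 alone for endothelium (0.028) and epicardium (−0.24).

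Leaving out 1 library gave 817 (without simvastatin replicate 3) to 1115 genes rising, 0 to 1 of the 35 rising or falling, 0 to 1 falling in the lists of other hydrolases, membrane proteins, pump genes and mTORC1 control, 2 to 5 autophagy genes rising (5 without control replicate 3), and −0.0074 to 0.11 for summed cell type markers: cardiomyocyte. Hexa was the gene called as falling without control replicate 4.

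Fold changes near 0 and those of the genes that split within groups changed sign. In set 1 alone they were −0.092 for Tfe3, 0.95 for Naglu, −0.035 for Atp6v1g1, −0.10 for Atp6ap2 and −0.033 for Rnasek. In set 2 alone they were −0.22 for Tfeb, −1.31 for Mcoln1, −0.015 for Gaa, −0.00014 for Smpd1, −0.042 for Atp6v0d1 and 0.094 for Atp6v0d2. Atp6v0b gave 0.012 with library totals and 0.0073 with the second component, where Atp6ap2 gave −0.034. With 1 library left out the ranges were −0.055 to 0.090 (Tfe3), −0.26 to 0.49 (Mcoln1), −0.038 to 0.10 (Tpp1), −0.032 to 0.088 (Gaa), −0.65 to 0.084 (Naglu), −0.050 to 0.049 (Smpd1), −0.082 to 0.17 (Atp6v0d1), −0.077 to 0.069 (Atp6v0b), −0.0029 to 0.089 (Atp6v1g1), −0.077 to 0.11 (Atp6ap2) and −0.0070 to 0.23 (Rnasek). The cause of these shifts was not tested. At 4 libraries a group, intervals had a median half-width of 0.24 on the log2 scale for the 35 genes, against 0.44 for all genes.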
